A study of Mus musculus with 8 samples.

Results

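GC-poor promoter initiation sites are places where DNA replication started close to the beginning of a protein-coding gene although the DNA under the site held less G and C than A and T. They were chosen from both tables of replication initiation sites (ISs) by position and base composition. An IS counted when the start of a transcript of some protein-coding gene (TSS; GENCODE M1, mouse build mm9) lay no more than 1 kb away, when less than 50% of its bases were G or C, when every TSS within 1 kb was on the same strand, and when it was on an autosome other than 10, 15 and 16. Earlier results of these data had shown fold changes shifted in blocks on the 3 autosomes left out, so leaving them out was not independent of the read values. The rule gave 385 of the 39116 ISs in the table that compares Rif1KO with WT, next to 379 genes, and 1552 of the 129937 ISs in the table that compares Rif1KO_shMcm6 with Rif1KO_shLacZ, next to 1433 genes. The gene sets shared 274 genes. On the same 16 autosomes the tables held 31414 and 108860 ISs.

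Most mammalian replication origins are licensed in G1 phase, when the MCM helicase is loaded on DNA, and only some of the licensed sites fire in a given S phase. Origins are found more often than other DNA at promoters with CpG islands, stretches that keep many CpG dinucleotides, and near runs of guanines able to fold into a G-quadruplex (G4). Promoters without a CpG island are typical of genes used in few tissues, and some of them carry a TATA box. RIF1 directs a phosphatase that holds back origin firing and helps set the order in which the genome replicates, and MCM6 is a subunit of the MCM helicase.

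The cells were CH12, a mouse B lymphoma line, grown with IL4, CD40 and TGF beta stimulation, the mixture that induces class switching. WT cells carried intact Rif1 and Rif1KO cells had lost it, and neither received a hairpin. Rif1KO_shLacZ and Rif1KO_shMcm6 cells were Rif1KO cells that also carried a lentiviral short hairpin, against the bacterial LacZ gene as a control or against Mcm6, and were selected with puromycin. Each of the 4 groups had 2 libraries of short nascent strands (SNS-seq), which were made from asynchronous cultures by size selection and lambda exonuclease digestion. Nascent DNA gives no measure of how much RIF1 or MCM6 protein was left.

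The tables held 1 pooled value per IS and condition, so the spread between the 2 libraries of a group could not be seen and no difference between conditions could be tested. Densities are log2 RPM (reads scaled to a total of 1e+06) over the ISs of a table. They corresponded to 3350255 reads in WT, 3724571 in Rif1KO, 21071351 in Rif1KO_shLacZ and 23602750 in Rif1KO_shMcm6, and every value came out as a whole number of reads. A GC-poor promoter IS rested on a median of 74 reads in WT, 81 in Rif1KO, 151.5 in Rif1KO_shLacZ and 172 in Rif1KO_shMcm6. All intervals below are 95% intervals that cover counting or sampling of sites only (Wilson for shares, order statistics for medians, exact Clopper-Pearson for the reads of 1 site). Because each table was scaled to its own ISs, density levels are compared only within a table, and across tables their ranks alone.

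The sequences below are examples of the DNA of these sites and do not stand for the whole ISs, whose CpG ratios differed (0.597 at Ppp1r11 and 0.0924 at Rgs3). They are stretches, taken from outside annotated exons, of ISs near the top and the bottom of the fold change ranking in each table among ISs at or above the median density, on the strand of the gene, followed by a GC-rich promoter IS that was lower in Rif1KO than in WT (a log2 fold change of -0.96) and was picked by the same ranking among GC-rich ISs. CG dinucleotides are in capitals.
Rgs3, mm9 chr4:62325769-62325948, + strand: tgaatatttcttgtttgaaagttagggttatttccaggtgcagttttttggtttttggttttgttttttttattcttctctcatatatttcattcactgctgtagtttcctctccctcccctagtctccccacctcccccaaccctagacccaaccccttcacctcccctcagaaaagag
Ppp1r11, mm9 chr17:37088284-37088367, - strand: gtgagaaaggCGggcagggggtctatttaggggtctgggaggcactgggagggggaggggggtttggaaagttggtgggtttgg
1700012B07Rik, mm9 chr11:109676302-109676481, - strand: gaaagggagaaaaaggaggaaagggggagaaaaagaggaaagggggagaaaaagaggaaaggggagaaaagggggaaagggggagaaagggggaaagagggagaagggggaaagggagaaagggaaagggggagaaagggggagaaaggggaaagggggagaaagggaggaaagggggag
Fam114a1, mm9 chr5:65362675-65362854, + strand: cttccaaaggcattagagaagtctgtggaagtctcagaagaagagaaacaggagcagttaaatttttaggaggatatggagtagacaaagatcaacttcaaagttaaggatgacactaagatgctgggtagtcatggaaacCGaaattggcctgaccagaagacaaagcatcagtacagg
Zzz3, mm9 chr3:152058667-152058846, + strand: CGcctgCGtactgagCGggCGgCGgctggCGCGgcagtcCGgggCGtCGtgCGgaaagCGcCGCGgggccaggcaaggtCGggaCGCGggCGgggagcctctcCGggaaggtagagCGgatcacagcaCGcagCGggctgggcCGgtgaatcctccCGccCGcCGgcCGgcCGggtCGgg
The stretches at Rgs3 and 1700012B07Rik held 0 CG, those at Ppp1r11 and Fam114a1 held 1 each, and the one at Zzz3 held 29 in 180 bases. The stretch at 1700012B07Rik was a long run of purines. Over all GC-poor promoter ISs the median ratio of observed to expected CpG was 0.221 in the Rif1KO and WT table and 0.215 in the hairpin table. GC-rich ISs at promoters of 1 direction had ratios of 0.596 and 0.455, and GC-poor ISs away from promoters had 0.144 and 0.133. The GC-poor promoter ISs were therefore closer in CpG content to ISs away from promoters. Their median GC content was 46.3% and 45.6%.

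The promoters beside these ISs were a mixture. Taking 250 bases before to 50 bases after the nearest TSS, 44.5% of the windows in the Rif1KO and WT table and 45% in the hairpin table had a GC content below 50%, against 6.51% and 7.4% beside GC-rich promoter ISs and 29.7% of all 38904 promoter windows. Some of the genes still had a CpG-rich start (GC of at least 55% and a CpG ratio of at least 0.6), with the IS in GC-poor DNA next to it. That was so for 25.1% (21.04 to 29.7) and 25.5% (23.4 to 27.8) of windows, against 60.1% and 51.3% beside GC-rich promoter ISs. Where the GC-poor IS covered the TSS, 4.26% of 47 windows and 5.91% of 220 were CpG-rich. Of those windows 53.2% and 68.6% had a GC content below 50%. TATAAA, the core of the TATA box, was found on either strand in 10.7% (8.01 to 14.2) and 14.8% (13.1 to 16.7) of the windows, against 4.82% and 5.22% beside GC-rich promoter ISs and 11.3% of all promoters. Counted only on the gene's strand and 40 to 16 bases before the TSS, where a TATA box lies, it was rare, at 1.05% (0.408 to 2.66) and 2.3% (1.63 to 3.15), against 1.24% and 1.51% beside GC-rich promoter ISs and 1.6% of all promoters. GGGCGG, the core of the site bound by Sp1, was found in 32.2% and 33.5%, against 66.6% and 63% beside GC-rich promoter ISs and 44.3% of all promoters. CCAAT was in 34.3% and 35.4% of windows and in 35.5% of all promoters. ATGCAAAT, the octamer of immunoglobulin promoters, was in 2.36% (1.24 to 4.42) and 1.87% (1.3 to 2.69), against 1.53% of all promoters. CACGTG, the E-box bound by MYC, was in 6.54% and 6.94%, and CCGGAAG, bound by ETS factors, in 7.33% and 6.81%, against 7.58% and 11.0% of all promoters. Both strands were searched, and none of these words is contained in another. The ISs were sorted by GC content and lie within 1 kb of these TSSs. Differences from GC-rich promoter ISs in window GC content, CpG-rich starts and words rich in G and C are therefore not independent of the rule.

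GC-poor promoter ISs covered the TSS less often than GC-rich ones did. The TSS was inside the IS at 48 of 385 ISs (12.5%, 9.53 to 16.1) in the Rif1KO and WT table and at 228 of 1552 (14.7%, 13 to 16.5) in the hairpin table. Among GC-rich promoter ISs it was inside 43.3% (40.8 to 45.7) and 36.8% (35.1 to 38.5), and among divergent promoter ISs, which had TSSs on both strands, inside 62.8% and 52.6%. Even placement of ISs of these widths within 1 kb of a TSS would put 19.3% and 24.7% of the GC-poor and 21.7% and 25.7% of the GC-rich ones over it, so most of a group would lie beside the TSS under the rule alone. The GC-poor share was below the GC-rich share on 16 of 16 autosomes in both tables. This contrast is not independent of the rule, which sorted ISs by their own GC content. Of all promoter windows 29.7% had a GC content below 50%, so an IS over a TSS more often counts as GC-rich. ISs of both kinds had similar widths, with medians of 454 and 527 bp in the first table and 640 and 654 bp in the second. Of the GC-poor ISs that did not cover the TSS, 199 lay upstream and 138 downstream in the first table, and 776 upstream and 548 downstream in the second. GC-rich promoter ISs had the opposite balance, with 339 upstream and 554 downstream in the first table and 859 and 1120 in the second. Exons of protein-coding genes were touched by 22.3% of GC-poor promoter ISs in the first table and 25.1% in the second, against 61.8% and 56% of the GC-rich ones.

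**Figure D1:**
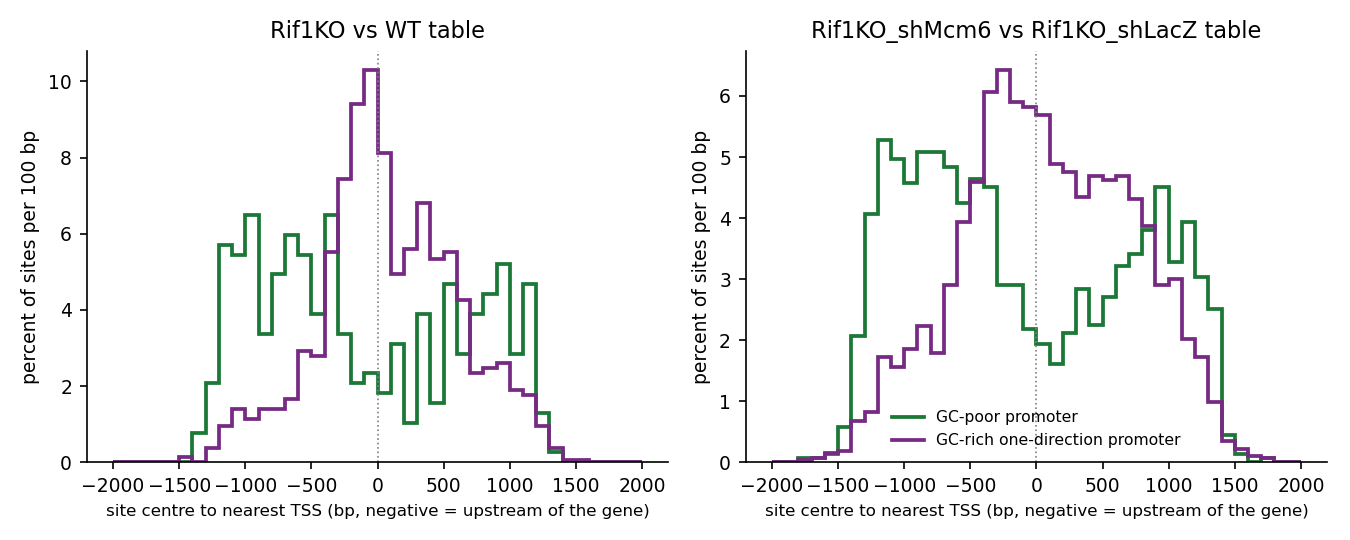
Distance from the centre of each IS to the nearest TSS in bp, negative upstream of the gene, as the percent of ISs in each 100 bp bin, for GC-poor (green) and GC-rich (purple) promoter ISs of 1 direction in both tables. The green curve dips at the TSS, which lay inside 12.5% and 14.7% of GC-poor promoter ISs, and the purple curve is high there.

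Most of these ISs held a cluster of guanine runs, although they were poor in G and C. A match to the G4 motif, defined as at least 4 runs of 3 or more guanines with 1 to 7 bases of any kind between them, was present on either strand in 294 of 385 ISs (76.4%, 71.9 to 80.3) and in 1113 of 1552 (71.7%, 69.4 to 73.9). In flanks of the same length the motif was present in 14.8% (11.6 to 18.7) on either side in the first table, and in 18.4% upstream and 20.9% downstream in the second. The flanks had a GC content close to that of the ISs, with medians of 45.6% upstream and 47% downstream in the first table and 45.6% and 46.6% in the second. Of all ISs on the same autosomes, 77.9% held it in the first table, within the interval of the GC-poor promoter ISs, and 77.3% in the second, above their interval. GC-poor ISs away from promoters held it in 76.5% and 77.7%, and GC-rich promoter ISs in 84.1% and 77.8%. The promoter windows of the GC-poor ISs held it in 22.8% and 21.3%, close to the 22.2% of all promoters. In the first table the guanine runs were on the strand of the gene in 35.8% of GC-poor promoter ISs and on the other strand in 42.1%, and in the second in 37.5% and 37.1%. GC-rich promoter ISs had them on the gene's strand in 54.2% and 49.6%, and on the other in 37.7% and 40.5%.

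Examples of the motif are given for ISs among the highest and the lowest in fold change, read 5′ to 3′ along the strand that carries the guanines, with the runs of 3 or more guanines in capitals.
Rgs3, mm9 chr4:62325882-62325908, - strand: GGGGGaggtGGGGagactaGGGGaGGG
Prkcq, mm9 chr2:11171675-11171689, + strand: GGGtGGGtGGGtGGG
Ppp1r11, mm9 chr17:37088306-37088331, - strand: GGGaggcactGGGaGGGGGaGGGGGG
Wdfy3, mm9 chr5:102409215-102409240, + strand: GGGGctgagaGGGGatGGGaatGGGG
Tmeff2, mm9 chr1:50985551-50985569, - strand: GGGGaGGGGaGGGGaGGGG
Slamf1, mm9 chr1:173696085-173696099, + strand: GGGaGGGaGGGaGGG
Fam114a1, mm9 chr5:65362441-65362466, + strand: GGGGacGGGGGGtGGGGGGtGGGGGG
ISs at both ends of the fold change range carried it, and its spacing and loop sequence varied among these examples. Its place in the IS was similar from site to site. Among GC-poor promoter ISs with exactly 1 match, the match lay before the centre of the IS, read along the guanine-rich strand, at 200 of 203 ISs (98.5%, 95.7 to 99.5) in the first table and at 679 of 723 (93.9%, 91.9 to 95.4) in the second. The median distance to the centre was -142.5 bp (-154 to -131.5) and -234.5 bp (-241 to -228), in a wider IS in the second table. The same arrangement was seen at 97.3% and 97.1% of GC-poor ISs away from promoters, and at 76% (72.3 to 79.4) and 80.7% (78.4 to 82.9) of GC-rich promoter ISs.

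**Figure D2:**
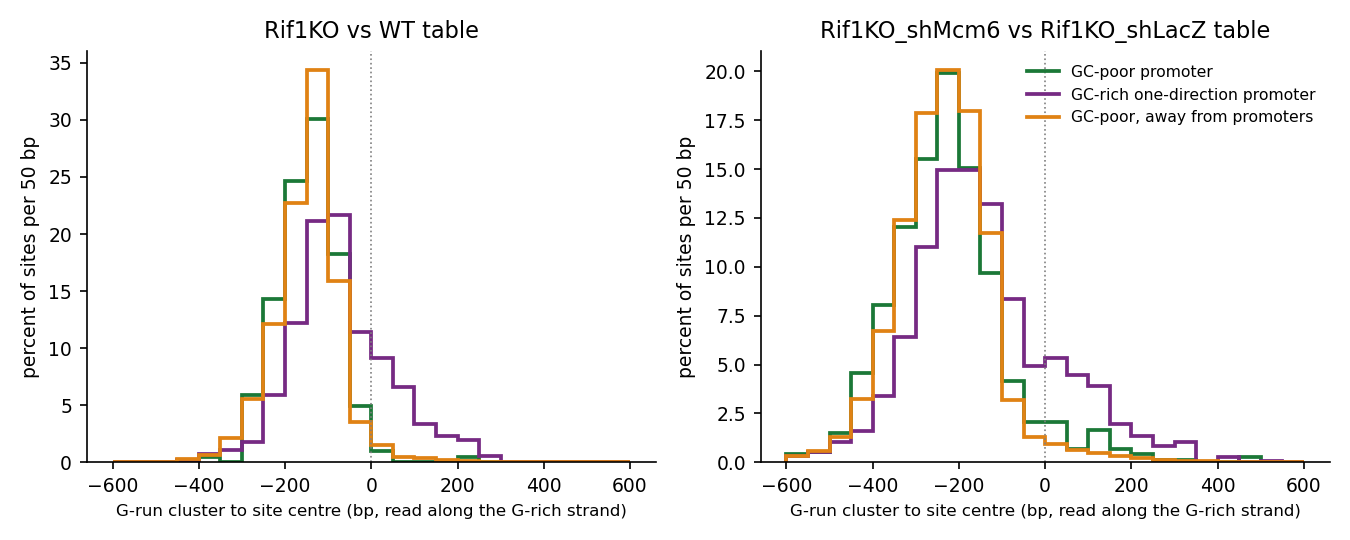
Position of the G4 motif relative to the centre of the IS in bp, read along the strand that carries the guanine runs, as the percent of ISs with exactly 1 match in each 50 bp bin. GC-poor promoter ISs (green) and GC-poor ISs away from promoters (orange) overlie each other and lie almost wholly before the centre, at medians of -142.5 and -140 bp in the Rif1KO and WT table and -234.5 and -232 bp in the hairpin table, and GC-rich promoter ISs (purple) reach past the centre.

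GC-poor promoter ISs were less dense than other promoter ISs. Their median density was 4.47 log2 RPM (4.41 to 4.54) in WT and 4.44 (4.39 to 4.56) in Rif1KO. GC-rich promoter ISs had 4.93 and 4.73, divergent promoter ISs 4.94 and 4.66, and GC-poor ISs away from promoters 4.34 and 4.39. In the hairpin table the medians were 2.85 (2.79 to 2.90) in Rif1KO_shLacZ and 2.87 (2.83 to 2.91) in Rif1KO_shMcm6, against 3.04 and 2.96 for GC-rich promoter ISs and 2.72 and 2.74 for GC-poor ISs away from promoters. The control density of GC-poor promoter ISs was below that of GC-rich ones on 16 of 16 autosomes in the first table and on 13 of 16 in the second. Per kb of IS, on the log2 RPM per kb scale, the order in the control was the same: GC-poor promoter ISs had 5.62 in WT and 3.52 in Rif1KO_shLacZ, GC-rich ones 5.87 and 3.65, and GC-poor ISs away from promoters 5.56 and 3.50. ISs over the TSS had a higher median, 4.91 in WT and 3.07 in Rif1KO_shLacZ, than those upstream of it, 4.41 and 2.77. They were also wider, with medians of 538 and 712.5 bp against 443 and 624 bp upstream. In the hairpin table ISs with a G4 motif had a median of 3.0 in Rif1KO_shLacZ and those without 2.44, at median widths of 689 bp and 528 bp. In WT the medians with and without the motif were 4.48 and 4.41.

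**Figure D3:**
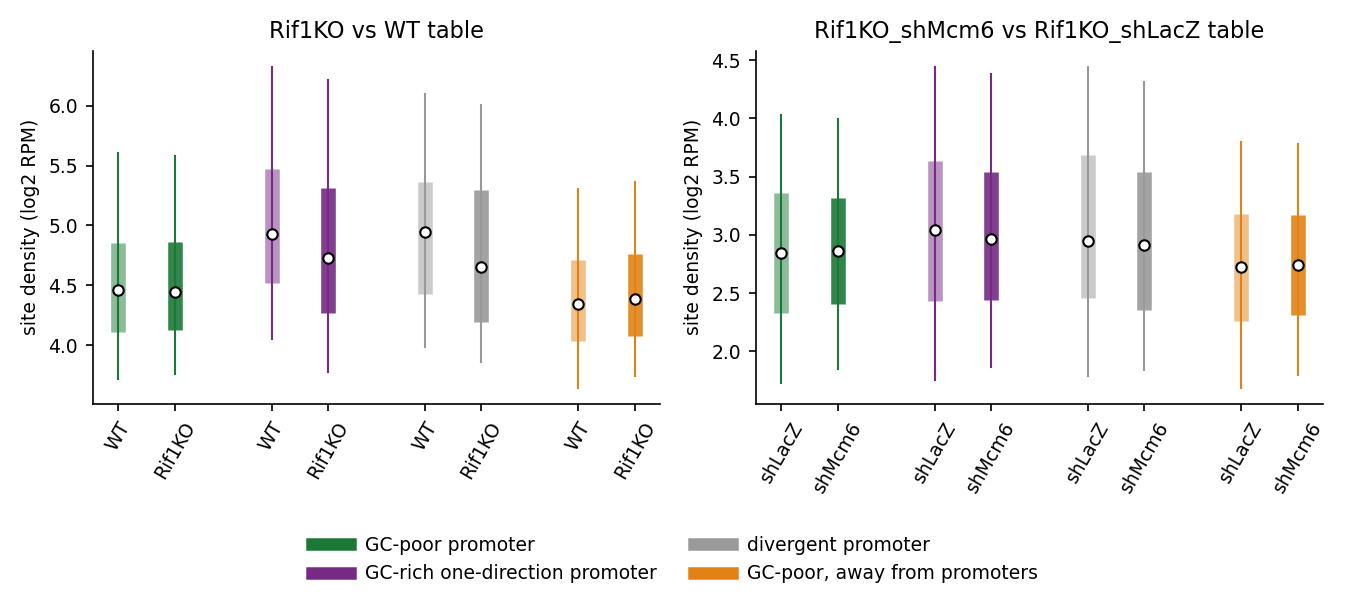
Density of ISs in log2 RPM for 4 kinds of IS in both conditions of each table (lighter, control condition; darker, Rif1KO or shMcm6). Circles are medians, thick bars span the middle quartiles and thin lines the 5th to the 95th percentile of ISs; GC-poor promoter ISs (green) lie below the GC-rich ones (purple) in each condition, with medians of 4.47 and 4.93 in WT.

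Several of the densest members shared sequence with a tandem repeat. In the IS beside the predicted gene Gm10106, bases 234 apart were identical at 96.5% of positions, which is the period of the mouse major satellite that makes up pericentromeric DNA. Sharing at least 20% of its 12-base words with that IS picked out 12 of the 385 ISs, 10 at the centromeric end of chromosome 9 and 2 on chromosome 2, and 8 of the 1552. The densest of the 12, at Gm10800 and Gm10801 on chromosome 2, were far less regular, with 51.3% identity at 234 bases and at most 41.1%, at 120 bases, and shared 38.5% and 21.8% of their words. The same criterion, chosen after the data were seen, held for 4 of the 6 densest ISs of the first table and 3 of the 6 of the second. A unit of the repeat from the IS beside Gm10720 is shown with CG in capitals.
Gm10720, mm9 chr9:3015081-3015314, + strand: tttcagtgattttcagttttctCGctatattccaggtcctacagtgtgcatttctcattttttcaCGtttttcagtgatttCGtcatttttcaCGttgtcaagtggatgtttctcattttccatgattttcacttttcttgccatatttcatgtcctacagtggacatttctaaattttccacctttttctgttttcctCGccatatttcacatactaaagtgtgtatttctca
It held 5 CG in 234 bases. The CpG ratio of the 12 ISs ran from 0.601 to 0.985, above the median of 0.221 for all GC-poor promoter ISs, and none of the 12 held a G4 motif. Their genes were mostly predicted genes such as Gm10800, Gm10801 and Gm10722. The IS at Gm10800 had 1001 reads in WT and 985 in Rif1KO, or 8.22 and 8.05 log2 RPM. Together the 12 held 10.5% of the WT reads of all GC-poor promoter ISs. All 12 were lower in Rif1KO than in WT, by -0.23 to -0.05 with a median of -0.16, and the counting interval of the fold change lay wholly below 0 at Gm10800 (-0.30 to -0.05). In the hairpin table, 5 of the 8 were lower in Rif1KO_shMcm6, with a range of -0.15 to 0.32. There the counting interval lay below 0 at Gm10800 (-0.25 to -0.04). It lay above 0 at Gm10722, with 760 and 979 reads (0.20, 0.06 to 0.34). Reads were kept by the authors only where they aligned to 1 place, and how many repeat copies the cells carry is not known from these files. Outside the satellite the densest IS was at Sfi1, which encodes a centrin-binding protein, with 551 reads in WT and 580 in Rif1KO (7.36 and 7.28 log2 RPM) and with 749 in Rif1KO_shLacZ and 759 in Rif1KO_shMcm6 (5.15 and 5.01). In the hairpin table the 6 densest also included ISs at Plaur, the urokinase receptor, with 545 and 597 reads, and at Eddm3b, an epididymal protein, with 544 and 616.

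The comparison of Rif1KO with WT asks whether use of these sites depended on RIF1. As a group they had a median close to 0. The median log2 fold change was -0.0094 (-0.04 to 0.03), beside 0.0077 for all ISs on the 16 autosomes, and 198 of the 385 were below 0. GC-rich promoter ISs had a median of -0.17 (-0.18 to -0.15), divergent promoter ISs -0.17 (-0.26 to -0.12) and GC-poor ISs away from promoters 0.06 (0.05 to 0.06). The GC-poor median was 0.16 above the GC-rich median, and it was the higher of the pair on 16 of 16 autosomes. It was below the median of GC-poor ISs away from promoters on 12 of 16. These differences were not tested, for lack of replicate values. At a threshold of 1.5-fold, 4 ISs (1.04%, 0.405 to 2.64) were higher in Rif1KO, where 0.945% of all ISs were, and 1 (0.26%, 0.0459 to 1.46) was lower, where 1.35% of all ISs were. On all autosomes, 10, 15 and 16 included, the share of GC-poor promoter ISs past 1.5-fold was 3.01%, against 1.3% here. Among GC-rich promoter ISs 114 of 1574 (7.24%, 6.06 to 8.63) were lower and 1 was higher. Without the satellite-like ISs the GC-poor median was 0.00028. The median near 0 joined ISs with different calls, which use the same reads. ISs called in both conditions had -0.04 (-0.07 to -0.0074, n = 206). Those called only in Rif1KO had 0.16 (0.10 to 0.20, n = 133), and those called only in WT -0.23 (-0.33 to -0.13, n = 46).

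The 5 ISs past 1.5-fold rested on few reads. The IS at Rgs3, a regulator of G protein signalling, had 59 reads in WT and 100 in Rif1KO, a log2 fold change of 0.61 (0.13 to 1.10). The IS at Acad11, an acyl-CoA dehydrogenase, had 52 and 88 (0.61, 0.10 to 1.13). At Gng12, a G protein gamma subunit, 35 and 60 reads were counted, and at Lyzl1, a lysozyme-like protein, 31 and 52. Their intervals, -0.00014 to 1.27 and -0.08 to 1.28, reached 0. Each of the 4 was called as an IS in Rif1KO and not in WT. The lower one, upstream of the zinc finger gene Zfp260, had 58 reads in WT and 37 in Rif1KO (-0.80, -1.44 to -0.18) and was called in WT and not in Rif1KO. The calls use the same reads as the fold change, so the pairing of call and direction is no separate evidence.

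Among ISs at or above the members' median density, which were ranked by the fold change itself, the lowest were at Ppp1r11, an inhibitor of protein phosphatase 1, with 125 reads in WT and 94 in Rif1KO (-0.56, -0.97 to -0.17), at Fam55b with 94 and 75 (-0.48, -0.94 to -0.03), and at Fam124a with 117 and 97 (-0.42, -0.83 to -0.02). All 3 covered a TSS. Next in order came Kcnh6, a potassium channel, Fam71b, Mrap2, a melanocortin receptor accessory protein, Fbxo39, Stat5b, a transcription factor activated by cytokines, Atp8b4 and Mfap5, with log2 fold changes from -0.41 to -0.33 and intervals that reached 0. The highest, after Rgs3, were at Spert with 60 and 99 reads (0.57, 0.09 to 1.06), at Nmi, a partner of MYC and STAT proteins, with 66 and 104 (0.50, 0.04 to 0.97), and at Gm8054 with 67 and 103 (0.47, 0.01 to 0.93). Pcnx, Gm6900, Aoc3, 1700027A23Rik, Prkcq and Pfn2 followed with 0.46 to 0.35, and of these the interval lay above 0 only at Prkcq, the protein kinase C theta of lymphocyte signalling, with 144 and 204 reads (0.35, 0.03 to 0.67).

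Within the group the fold change varied with base composition. ISs with a CpG ratio of up to 0.2 had a median of 0.06 (0.02 to 0.09, n = 178), and those with a ratio above 0.6 had -0.16 (-0.22 to -0.09, n = 26), of which 12 were the satellite-like ISs. Over all members Spearman's rho between the CpG ratio and the fold change was -0.19 (n = 385). Without the satellite-like ISs it was -0.15 (n = 373). By GC content the medians were not in a steady order. They were -0.08 (-0.15 to 0.03, n = 21) below 36%, or 0.03 (-0.15 to 0.34, n = 11) without the satellite-like ISs, 0.09 (-0.00080 to 0.28) from 36% to 40%, 0.03 (-0.02 to 0.12) from 40% to 44%, -0.05 (-0.09 to 0.05) from 44% to 47% and -0.02 (-0.07 to 0.02) from 47% to 50%. Just inside the limit, from 48% to 50%, the median was -0.0025 (n = 120), and just outside it, from 50% to 52%, it was -0.04 (n = 129). ISs away from promoters had medians of 0.11 from 36% to 40%, -0.00080 from 47% to 50% and -0.11 at 60% and over, where promoter ISs of 1 direction had -0.22. ISs over the TSS had a median of -0.09 (-0.13 to 0.02, n = 48), those upstream -0.0043 (n = 199) and those downstream 0.0070 (n = 138). ISs whose nearest TSS window was CpG-rich had -0.01 (n = 96) and the others -0.0084 (n = 289). Outside the satellite, ISs with a G4 motif had 0.0084 and those without -0.03 (-0.08 to 0.05, n = 79).

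**Figure D4:**
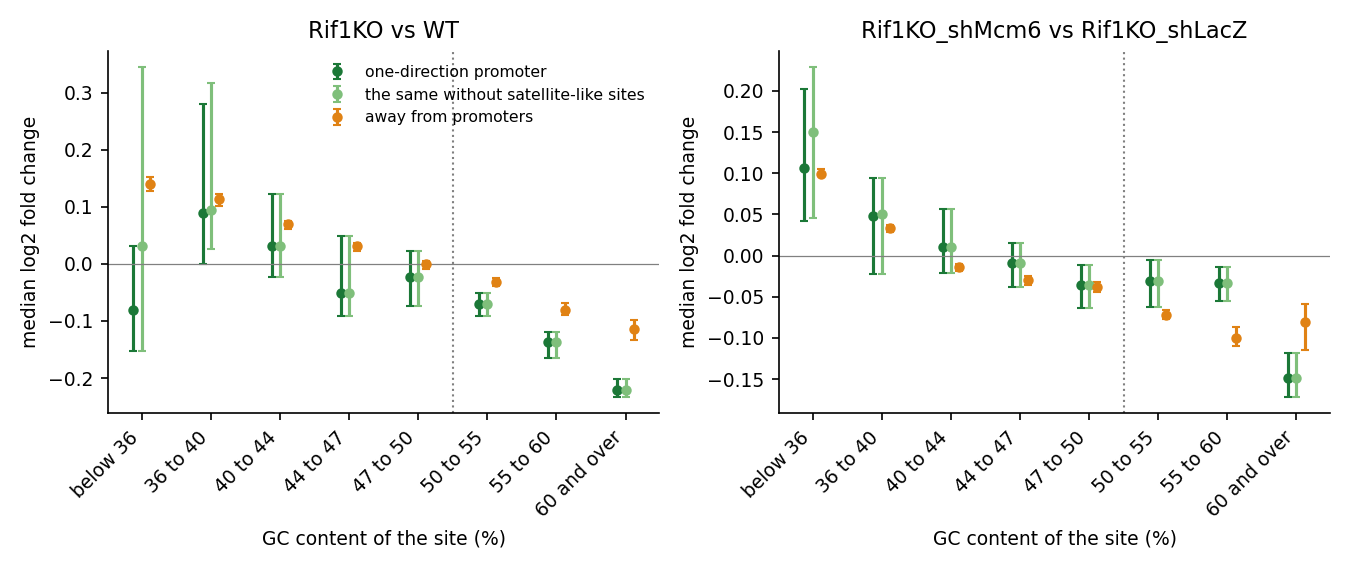
Median log2 fold change of ISs in bins of their own GC content (percent), with 95% order-statistic intervals, for promoter ISs of 1 direction (dark green), the same without satellite-like ISs (light green) and ISs away from promoters (orange). Left of the dotted line, at 50%, are the GC-poor ISs; in Rif1KO vs WT the promoter medians are -0.08 below 36%, 0.09 at 36% to 40% and -0.22 at 60% and over.

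The comparison of the hairpins asks how use of these sites differed with less MCM6 in cells without RIF1. As a group they again had a median close to 0. The median log2 fold change of Rif1KO_shMcm6 against Rif1KO_shLacZ was -0.0023 (-0.02 to 0.01), beside -0.01 for all ISs on the 16 autosomes, and 778 of the 1552 were below 0. GC-rich promoter ISs had -0.06 (-0.08 to -0.05), divergent promoter ISs -0.14 (-0.19 to -0.10) and GC-poor ISs away from promoters 0.0063 (0.0043 to 0.0085). The GC-poor median was 0.06 above the GC-rich median, and it was the higher of the pair on 13 of 16 autosomes. At 1.5-fold, 66 ISs (4.25%, 3.36 to 5.37) were higher in Rif1KO_shMcm6, where 4.82% of all ISs were, and 16 (1.03%, 0.636 to 1.67) were lower, where 1.5% of all ISs were. GC-rich promoter ISs had 164 in each direction, or 5.24%. The counting interval excluded 0 at all 66 and all 16, and most of them were below the median density of the members. These ISs were picked by the fold change of the same reads, so the intervals are no separate evidence of a change. The 66 had a median of 73 reads in Rif1KO_shLacZ, against 151.5 for all members, 9 of them were at or above the median density, and 9 were called as ISs in Rif1KO_shLacZ. All 66 were called in Rif1KO_shMcm6. The calls use the same reads as the fold change, so a weak IS could enter through the condition where it was high. ISs called only in Rif1KO_shMcm6 had a median of 0.23 (n = 396), with 57 higher and 3 lower past 1.5-fold. Those called only in Rif1KO_shLacZ had -0.19 (n = 164), with 0 and 10. Those called in both had -0.04 (-0.06 to -0.03, n = 992), with 9 and 3. The 16 had a median of 117 reads, and 2 of them were at or above the median density. When members were split by mean density into 3 equal groups, the lowest had a median fold change of 0.08 (0.03 to 0.13) and held 50 of the 66, and the highest group had -0.06 (-0.08 to -0.03).

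The weakly used ISs that were highest had genes of many kinds. The IS at Defb18, a defensin, had 27 reads in Rif1KO_shLacZ and 86 in Rif1KO_shMcm6 (1.51, 0.87 to 2.19), the IS at 4932431P20Rik had 87 and 255 (1.39, 1.03 to 1.76), and the IS at Atm, the kinase that signals DNA breaks, had 38 and 93 (1.13, 0.57 to 1.71). Also among the 66 were ISs at the genes of the transcription factors Tbx5, with 71 and 149 reads, Tcfap2b with 93 and 190, Dlx1 with 55 and 102 and Nr5a1 with 62 and 106. These 7 were picked after their values were seen. Among ISs at or above the median density, ranked by the fold change itself, the highest was at 1700012B07Rik with 125 and 292 reads (1.06, 0.75 to 1.37). It was followed by 1700112E06Rik with 114 and 231 (0.86, 0.53 to 1.19), and by Pappa, a protease that cleaves binding proteins of insulin-like growth factor, with 241 and 461 (0.77, 0.54 to 1.003). Camta1, Slc5a7, a choline transporter, 5730460C07Rik, Gsdma2, Wdfy3, Zc3h13 and Tmeff2 had 0.62 to 0.57, and the densest of them, at Zc3h13, had 385 and 647 reads.

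The lowest of the well-used ISs was at Gm6665 with 213 and 143 reads (-0.74, -1.05 to -0.43). Next came Fam114a1 with 296 and 220 (-0.59, -0.85 to -0.34), Krtap4-7, a keratin-associated protein, with 205 and 156 (-0.56, -0.87 to -0.25), Sv2c, a synaptic vesicle protein, with 240 and 183 (-0.55, -0.84 to -0.27), and Slamf1, a receptor on lymphocytes, with 227 and 175 (-0.54, -0.83 to -0.25). 1700016H13Rik, Acoxl, Fam188a, Itih5 and E130303B06Rik had -0.53 to -0.48. A second, weaker IS at Fam188a, over its TSS, was past 1.5-fold in the other direction, with 48 and 90 reads (0.74, 0.22 to 1.28). Among all members past 1.5-fold, 32 of the 66 higher and 9 of the 16 lower ones held a G4 motif. In 3 groups of near-equal size by mean density, the motif was in 52.8% of the weakest ISs, which had a median width of 443 bp, and in 86.3% of the densest, with 877 bp. Grouped by width instead, 56.5% of the narrowest and 85.9% of the widest ISs held it, and the part of width in the difference by density was not tested.

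**Figure D5:**
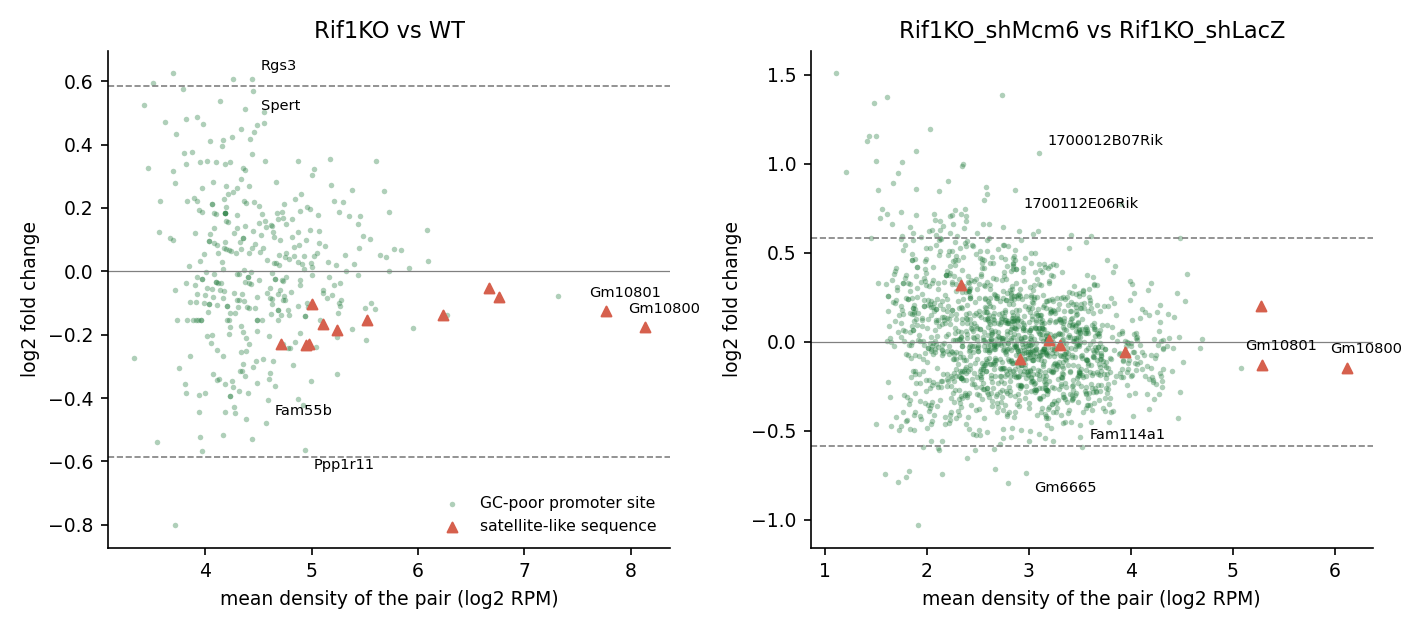
Each GC-poor promoter IS by the mean density of the pair (log2 RPM) and the log2 fold change, with satellite-like ISs as red triangles, the 1.5-fold threshold as dashed lines, and the 2 highest, 2 lowest and 2 densest of the ISs chosen by rank named. The densest IS of each table is the satellite-like one at Gm10800, at -0.18 and -0.15, and ISs past the threshold are mostly at low density.

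In the hairpin table position and sequence were related to the fold change only weakly. ISs over the TSS had a median of -0.05 (-0.10 to -0.02, n = 228), those upstream 0.01 (-0.0065 to 0.04) and those downstream -0.0074 (-0.03 to 0.03). Below 36% GC the median was 0.11 (0.04 to 0.20, n = 79) and from 47% to 50% it was -0.04 (-0.06 to -0.01, n = 541). Just inside the limit, from 48% to 50%, it was -0.03 (n = 383), and from 50% to 52% -0.02 (n = 409). ISs with at most 3 genes within 500 kb had a median of 0.12 (0.06 to 0.21, n = 116), and those with more than 15 had -0.01 (-0.04 to 0.01, n = 632). ISs without a G4 motif had 0.06 (0.02 to 0.10, n = 431) outside the satellite and those with one -0.02 (-0.04 to -0.0023, n = 1113). The ISs without the motif were also less dense. In the lowest of the 3 density groups the medians without and with the motif were 0.12 (0.06 to 0.17) and 0.04 (-0.01 to 0.11), and in the highest -0.06 and -0.06.

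Gene lists were used to describe the members by function. Olfactory receptor genes, whose promoter windows had a median GC content of 35.5%, had 8 GC-poor promoter ISs and 0 GC-rich ones in the first table, and 51 and 3 in the second, among 993 genes on these autosomes. Their median log2 fold changes were 0.20 in Rif1KO and 0.07 in Rif1KO_shMcm6, with 3 of 8 and 18 of 51 below 0. In the second table, where 4.82% of all ISs were 1.5-fold higher and 1.5% lower, 2 of the 51 were past 1.5-fold, both higher: Olfr722, with 57 reads in Rif1KO_shLacZ and 146 in Rif1KO_shMcm6, and Olfr971, with 50 and 108. Vomeronasal receptor genes had 2 and 13 GC-poor ISs, with medians of 0.16 and 0.16, and 1 of the 13 was past 1.5-fold, Vmn2r26 with 40 and 100 reads. Zinc finger genes had 9 and 36 GC-poor ISs beside 30 and 52 GC-rich ones, with medians of 0.02 and -0.08, and 1 in each table was past 1.5-fold, Zfp260 lower in Rif1KO, where 1.35% of all ISs were lower, and Zfp217 higher in Rif1KO_shMcm6.

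Genes of the immune system were present in small numbers, from lists that were themselves short. On these autosomes the lists held 190 immune receptors and lectins, 180 cytokines and receptors and 57 interferon-induced genes. Immune receptors and lectins had 7 and 18 ISs, with medians of -0.02 and -0.03 and 0 past 1.5-fold. Cytokines and their receptors had 2 and 16, with 1 past 1.5-fold, Il12a, a subunit of interleukin 12, with 171 and 117 reads (-0.71), where 1.5% of all ISs of the second table were 1.5-fold lower and 4.82% higher. Interferon-induced genes had 3 and 10, with 0 past it.

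Further lists are given by their counts, beside the same shares of all ISs, 4.82% higher and 1.5% lower in the second table. Proteasome genes had 0 in the first table and 5 in the second, with values of -1.03, -0.50, -0.45, 0.01 and 0.05, the lowest of them at Psmd8, a subunit of the regulatory cap, with 113 and 62 reads. The list of ribosomal protein genes, matched by symbol, had 2 and 10, with medians of 0.18 and -0.22, and most of these carry names of processed copies. The 1 past 1.5-fold was such a copy, Rps2-ps5, higher with 58 and 118 reads. Solute carriers had 2 and 23, with 2 higher in the second table, Slc7a8 and Slc5a7. Cytochrome P450 genes had 2 and 10, with Cyp2c67 and Cyp2c68 higher and Cyp4f13 lower in the second. Keratins and their associated proteins had 0 and 5, with Krtap17-1 higher, and serpins 0 and 4. Histone genes had 0 and 1, at H2afy, and replication genes 0 and 1. Many of these gene families are clusters of near-identical copies, to which reads cannot always be assigned.

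The contrasts share no library, so members found in both tables could be set side by side. An IS of one table overlapped exactly 1 of the other at 307 of the 385, and at 262 of them the overlapping IS was also a GC-poor promoter IS. At these 262 the rank correlation between WT and Rif1KO_shLacZ densities was 0.602, and that between the fold changes of Rif1KO vs WT and of Rif1KO_shMcm6 vs Rif1KO_shLacZ was 0.0852 (Spearman's rho over ISs, which are not independent replicates). Both fold changes were below 0 at 87 and above 0 at 49, the first alone was below 0 at 39 and the second alone at 87. Shared ISs were the denser ones, with a median of 3.38 log2 RPM in Rif1KO_shLacZ against 2.73 for the 1290 members without such a partner. The shared ISs had a median fold change of -0.08 in Rif1KO_shMcm6 and 2 past 1.5-fold upwards and 3 downwards, and those without a partner had 0.02 with 64 and 13. The fold change also varied with density and with the condition in which an IS was called. The part of these in the contrast was not tested. All 4 IS lists held 38.7% of the members of the first table and 14.5% of the second, against 40.3% and 11.5% of all ISs on the same autosomes.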

How the data were processed

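SNS-seq measured nascent strands in 8 libraries, 2 in each of 4 groups assigned from the labels. The authors trimmed reads (Trim Galore 0.6.4, cutadapt 2.6), kept alignments to 1 place in mm9 (Bowtie 1.2.3), called peaks per replicate with MACS without input, took the peaks common to replicates, kept those in clusters and merged both conditions' peaks (bedtools). The deposited tables give log2 RPM per IS, 1 pooled value per condition. How replicates were pooled is not given in the sources used here. The deposited IS lists carry another count, the number of merged replicate peaks, used only to tell where an IS was called. A column in which the authors class ISs by fold change was not used.

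RPM was turned back into reads, 100% whole within 0.001. TSSs came from GENCODE M1 (51723 protein-coding transcripts), sequence from NCBIM37, which is mm9. Fold changes are differences of the deposited log2 values. Samples labelled as replicates came from separate frozen vials. Intervals used scipy 1.17.1, and the fold change, interval and classing steps were tested on simulated data. Named sites are the 10 highest and 10 lowest fold changes among members at or above the members' median mean density, the 6 densest, members of gene lists and those said to be picked later. The members and lists were chosen with earlier results of these data known. The satellite alternative was chosen after seeing the data. Printed sequences are from mm9, outside exons. One list and some members of the lists are not reported here.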

Additional observations from a re-analysis of the deposited data

How the results depend on the processing

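No paired analysis was possible because the files give 1 pooled value per condition, and for the same reason no library could be left out. The settings tried were another threshold, log2(RPM + 1), a density filter, ISs called in both conditions, other GC, TSS, strand and chromosome rules, centring on all ISs and leaving out satellite-like ISs, the last chosen after seeing the data. The percent of GC-poor promoter ISs past the threshold depended on the threshold and on weak ISs. For Rif1KO vs WT it was 1.3% and became 0% at 2-fold, 20% at a log2 threshold of 0.32, 0.26% with log2(RPM + 1), 0% among ISs called in both conditions, 0% among ISs over the TSS and 3.01% on all autosomes. For Rif1KO_shMcm6 vs Rif1KO_shLacZ it was 5.28% and became 0.838% at 2-fold, 24.4% at 0.32, 2.45% with log2(RPM + 1), 2.62% without the ISs of lowest density in the table (below its lower quartile) and 1.21% among ISs called in both conditions. The median log2 fold change for Rif1KO vs WT was 0.035 with a GC limit of 45% and -0.085 over the TSS, and for Rif1KO_shMcm6 vs Rif1KO_shLacZ -0.023 without the ISs of lowest density, -0.043 for ISs called in both conditions, 0.022 with a GC limit of 45% and -0.051 over the TSS. The difference from GC-rich promoter ISs stayed above 0 in both contrasts under each setting tried, and was 0.10 for Rif1KO vs WT among ISs called in both conditions. In each case the cause was not tested. Depth limits single ISs: among the 4 that were 1.5-fold higher in Rif1KO, the interval reached 0 at those with 31 and 35 WT reads.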
